A study of Mus musculus with 27 samples.

Results

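To determine how H3K4 methylation regions lay over genes of the sodium pump in the embryonic heart, and which of them lost a mark when *Kmt2d* was deleted in the myocardium, 7 genes were examined: *Fxyd1*, *Fxyd2*, *Fxyd3*, *Fxyd5*, *Fxyd6*, *Fxyd7* and *Atp1b1*. A region was tied to a gene when it touched the gene body or lay within 5 kb of any of its annotated transcription start sites (TSS). By this rule the genes had 24 of the 358833 regions, and 2 of the 24 were shared by neighbouring genes. The genes were chosen by their family and by the authors' calls of decreased H3K4 methylation in these data, which were already in view, so the calls below are a description and were not tested.

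The sodium pump (Na,K-ATPase) moves sodium out of the cell and potassium in, and in heart muscle its activity sets the sodium gradient that drives calcium out through the sodium-calcium exchanger. A catalytic alpha subunit works with a beta subunit, which is needed for folding and delivery to the membrane. Small single-span membrane proteins of the FXYD family, named after a shared amino acid motif, bind the pump and adjust its kinetics. FXYD1 (phospholemman) is the member best known in heart muscle, where its phosphorylation relieves inhibition of the pump. H3K4me1 is found mainly at enhancers, H3K4me3 mainly at promoters, and H3K4me2 at either.

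Hearts were taken at E11.5 (embryonic day) from C57BL/6 mice. Control hearts were *Tnnt2::Cre;Kmt2d fl/+;mTmG/+* and mutant hearts *Tnnt2::Cre;Kmt2d fl/fl;mTmG/+*, so both genotypes carried the Cre transgene, the Cre reporter mTmG and at least 1 floxed copy of *Kmt2d*, which encodes an H3K4 methyltransferase. The *Tnnt2* promoter drives Cre in heart muscle cells, whereas whole hearts were used. Endocardial and other cells that keep *Kmt2d* were therefore part of every library, and less mark per cell cannot be told apart from fewer marked cells. For each genotype, 3 pools of 30 hearts gave 3 libraries each of input, H3K4me1, H3K4me2 and H3K4me3, which makes 24 of the 27 libraries. The other 3 were KMT2D ChIP-Exo libraries from cardiomyocytes, which were differentiated from ES cells of the line E14 Tg(Nkx2-5-EmGFP), and are not analysed here.

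The deposited values are lists of regions: a merged list over the 3 marks, and the regions that the authors called lower in mutant hearts for H3K4me1 (2730) and for H3K4me2 (6699). The deposited H3K4me2 list is longer than the count of such regions in the study's text. The reason is not given in the sources used here, and every share of H3K4me2 calls below rests on the list as deposited. No list carries a read count, a fold change or a value per library, so depth is unknown and no call could be set against the spread between pools. The merged list does not say which mark a region carries. As a check of the tissue, 10 of 10 heart muscle genes had a TSS in a merged region, with the widest such region of each gene between 6180 and 48800 bp. So did 5 of 5 endothelial genes (3880 to 15820 bp), 2 of 4 blood genes (620 and 11460 bp) and 6 of 8 genes of other tissues (160 to 4380 bp). Of all 22380 protein-coding genes, 15752 had a TSS in a merged region, so such a region alone does not mark a heart gene.

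The sequences that the results turn on are given first, in mouse assembly NCBIM37 (mm9), 1-based, and on the strand of the gene unless stated. The 250 bases before the outer TSS of *Fxyd1* (chr7:31840676-31840925, minus strand) contain the edge of the region with decreased H3K4me2, and capitals mark the 110 bases inside it.
Fxyd1 outer promoter: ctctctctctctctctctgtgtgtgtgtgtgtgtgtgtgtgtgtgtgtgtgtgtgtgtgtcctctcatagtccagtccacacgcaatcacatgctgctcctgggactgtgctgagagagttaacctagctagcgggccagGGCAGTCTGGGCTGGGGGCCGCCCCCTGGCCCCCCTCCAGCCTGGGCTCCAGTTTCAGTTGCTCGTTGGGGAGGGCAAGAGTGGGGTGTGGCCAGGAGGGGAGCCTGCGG
The RefSeq start of *Fxyd1* is the inner TSS, 803 bp downstream. The 250 bases before it (chr7:31839873-31840122, minus strand) lie wholly inside the same region. In this and the next sequences, capitals mark CpG dinucleotides.
Fxyd1 inner promoter: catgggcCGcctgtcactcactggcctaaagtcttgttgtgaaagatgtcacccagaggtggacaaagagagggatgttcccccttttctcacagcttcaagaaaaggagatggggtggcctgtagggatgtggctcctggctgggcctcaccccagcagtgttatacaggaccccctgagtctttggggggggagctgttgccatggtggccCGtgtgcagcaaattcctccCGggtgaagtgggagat
A second, narrow region with decreased H3K4me2 lay upstream of *Fxyd3* (chr7:31866306-31866465, plus strand) and is given whole. It holds 0 CpG.
Region upstream of Fxyd3: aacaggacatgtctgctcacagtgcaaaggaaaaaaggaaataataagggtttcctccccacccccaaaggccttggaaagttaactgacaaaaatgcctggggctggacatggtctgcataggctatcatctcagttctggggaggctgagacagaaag
For comparison, the promoters of *Fxyd6* (chr9:45178018-45178267, plus strand) and *Atp1b1* (chr1:166388487-166388736, minus strand) lay inside TSS regions that were in neither decreased list.
Fxyd6 promoter: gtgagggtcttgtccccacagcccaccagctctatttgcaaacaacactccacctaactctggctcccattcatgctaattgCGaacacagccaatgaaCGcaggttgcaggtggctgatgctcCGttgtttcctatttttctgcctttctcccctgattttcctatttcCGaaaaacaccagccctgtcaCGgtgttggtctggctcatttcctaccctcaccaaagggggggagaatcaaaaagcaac
Atp1b1 promoter: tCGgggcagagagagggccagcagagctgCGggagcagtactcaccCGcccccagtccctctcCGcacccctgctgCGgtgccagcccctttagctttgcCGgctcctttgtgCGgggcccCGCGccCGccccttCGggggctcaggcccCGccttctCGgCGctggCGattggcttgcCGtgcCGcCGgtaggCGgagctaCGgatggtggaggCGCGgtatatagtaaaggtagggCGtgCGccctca

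The region over *Fxyd1* had decreased H3K4me2 and was not in the H3K4me1 list. It spanned 6460 bp on chromosome 7 (31834326 to 31840785) and held both annotated *Fxyd1* TSS, at 31840675 and 31839872. The 3976 bp of the *Fxyd1* gene (31836700 to 31840675, minus strand) lay wholly inside, with all 8 exons of its longest transcript, so promoter, introns, coding sequence and UTR were covered. Of the region, 61.5% was *Fxyd1* body and 33.4% was *Fxyd7* body. A gene wholly inside the region over its TSS was uncommon, at 1021 of 22380 protein-coding genes (4.56%). Of those genes, 34.7% had decreased H3K4me2 in that region.

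The region was lopsided about the outer *Fxyd1* TSS. It reached 110 bp upstream of the outer *Fxyd1* TSS and 6349 bp downstream. Over the 15066 protein-coding genes whose first TSS lay in a merged region, the medians were 1147 bp upstream and 2166 bp downstream, and only 2.42% reached as little upstream as *Fxyd1* or less. These values depend on the TSS used. The inner TSS, the RefSeq start, lies 803 bp further into the region, so more of the region lay upstream of it. From the *Fxyd7* TSS the same region reached 4304 bp upstream and 2155 bp downstream. On the upstream side a gap of 880 bp followed, and 19.0% of its 32-base words occur more than once in the assembly, beginning with the CT and GT repeats seen at the 5′ end of the outer promoter above. Inside the region that share was 0.218%. The part of repeats in the position of this edge was not tested. Beyond the gap lay a 720 bp intergenic region (31841666 to 31842385), and then a 460 bp region (31844426 to 31844885) over a TSS of *Lgi4*, a secreted glial protein gene on the plus strand, 3751 bp from the *Fxyd1* TSS. Neither was in a decreased list.

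*Fxyd7*, best known from brain, shared the call, because the same region held its only TSS (31836481). The *Fxyd1* and *Fxyd7* TSS lie 4194 bp apart on the same strand, and the region ran on for 2156 bp into *Fxyd7*, over the first of its 6 exons. The call therefore cannot be assigned to 1 of the 2 genes, and it counts as a single region. Of the 17752 merged regions over a protein-coding TSS, 1703 (9.59%) held TSS of at least 2 protein-coding genes. Decreased H3K4me2 was called in 36.9% of those, and in 30.5% of the 239 whose genes lie on 1 strand. The other region of *Fxyd7* was the 1820 bp region over the *Fxyd5* TSS, which touches its 3′ end.

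**Figure D1:**
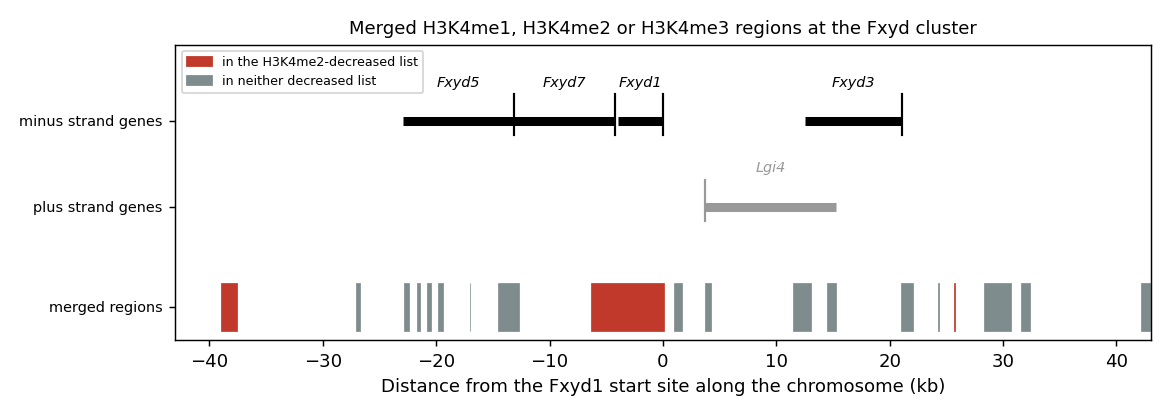
Map of the *Fxyd* cluster on chromosome 7, with distance from the *Fxyd1* start site in kb on the x axis. Bars on the lowest line are all merged regions, red where H3K4me2 was called decreased and grey otherwise, black lines are the members and grey lines other protein-coding genes, with a tick at the start site. The 6460 bp red region covers *Fxyd1* and the start of *Fxyd7*, whereas the regions over the start sites of *Fxyd5* and *Fxyd3* are grey.

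The other 2 genes of the cluster had narrow TSS regions that were in neither list. *Fxyd5* (dysadherin; 31817741 to 31827500, minus strand), which modulates cell adhesion as well as the pump, starts 35 bp beyond the 3′ end of *Fxyd7*. Its TSS region was 1820 bp wide (31826126 to 31827945) and held 8 of its 10 annotated TSS. A further 5 regions of 80 to 420 bp lay in its body, 3 of them over exons and 2 in introns, and none was decreased. The decreased region at *Fxyd1* began 6826 bp from the nearest *Fxyd5* TSS, outside the 5 kb window.

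*Fxyd3* (31853191 to 31861723, minus strand), an epithelial member, had a TSS region of 1060 bp (31861686 to 31862745) that held 2 of its 9 annotated TSS and reached 37 bp into the gene. Regions of 1580 and 720 bp lay toward its 3′ end, where *Lgi4* overlaps it on the other strand, and an intergenic region of 60 bp lay 3203 bp from its nearest TSS. Its decreased region was the intergenic one printed above, 160 bp wide and 4583 bp from its nearest TSS. Among regions tied to a member by distance alone, it was the closest to the 5 kb limit on the inner side. Among those examined, the closest on the outer side was the 720 bp region beyond *Fxyd1*, which lay 5185 bp from the *Fxyd7* TSS. All 32-base words of the 160 bp region occur once in the assembly, so reads of that length could be placed there uniquely. Among all merged regions of 100 to under 200 bp, 0.592% were in the H3K4me2 list.

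Within 100 kb of the *Fxyd1* TSS there were 47 merged regions, of which 3 had decreased H3K4me2 and 0 decreased H3K4me1. Over all merged regions the shares were 1.87% and 0.761%. Besides those at *Fxyd1* and upstream of *Fxyd3*, the remaining H3K4me2-decreased region was an intergenic one of 1380 bp (31801706 to 31803085). It lay beyond the 3′ end of *Fxyd5*, 37590 bp from the *Fxyd1* TSS. All 11 protein-coding genes reaching into this window had a TSS in a merged region. Of the 11, 2 (*Fxyd1* and *Fxyd7*, by the same region) had one in an H3K4me2-decreased region, against 29.2% of all such genes. No TSS of another of these genes lay in a decreased region, although *Gramd1a* had the widest region of the window, at 7900 bp. *Lgi4* was tied to the *Fxyd1* region by distance (3576 bp). The nearest region with decreased H3K4me1 lay 727 kb from *Fxyd1*.

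The second pair of members lies on chromosome 9, on the plus strand with 3715 bp between them. *Fxyd6* (phosphohippolin; 45178268 to 45204241) had 6 regions. The TSS region was 3660 bp wide (45175786 to 45179445). It reached 2482 bp upstream and 1177 bp downstream, the reverse of the *Fxyd1* region about its outer TSS. The other 5 were intronic, at 560, 4320, 2760, 80 and 560 bp in order from the TSS, so the widest region of *Fxyd6* (45182766 to 45187085) lay in an intron and not over its promoter. None was in either list.

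*Fxyd2* (45207957 to 45218361), the gamma subunit of the kidney pump, was the only member without a region over a TSS. Only 2 regions were tied to it, a 100 bp intronic region (45213926 to 45214025) that ended 13 bp before 1 of its 3 TSS and a 700 bp region over coding exons (45216046 to 45216745), and 7.69% of its body was covered. The 100 bp are printed (plus strand) because they are the nearest region to a *Fxyd2* TSS.
Region at Fxyd2: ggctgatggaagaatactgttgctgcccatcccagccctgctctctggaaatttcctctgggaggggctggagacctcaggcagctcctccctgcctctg
It holds 0 CpG. The nearest regions with decreased H3K4me2 and H3K4me1 lay 224 and 147 kb from *Fxyd6* and 253 and 111 kb from *Fxyd2*. Over all protein-coding genes on chromosomes with such regions, the median distances were 60.1 kb for H3K4me2 and 309 kb for H3K4me1. For both genes the H3K4me2 distance was thus above the median and the H3K4me1 distance below it.

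*Atp1b1*, which encodes the main beta subunit of the heart, had the widest region of the members and no call. Its TSS region (chromosome 1, 166378546 to 166393265) was 14720 bp wide, at least as wide as 97.4% of those over the first TSS of a gene, and covered the first 2 of 6 exons. It reached 4779 bp upstream and 9940 bp into the 21089 bp gene (166367398 to 166388486, minus strand). A second region of 3420 bp (166369186 to 166372605) lay over coding exons near the 3′ end. Of the 418 regions over a protein-coding TSS that were at least as wide as that of *Atp1b1*, 48.6% had decreased H3K4me2, so *Atp1b1* fell in the width range in which calls were most frequent, and was not among them. The nearest decreased region was an intergenic one of 2940 bp with decreased H3K4me1 (166403646 to 166406585), which began 15.2 kb upstream of the TSS and was not tied to the gene by the rule.

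**Figure D2:**
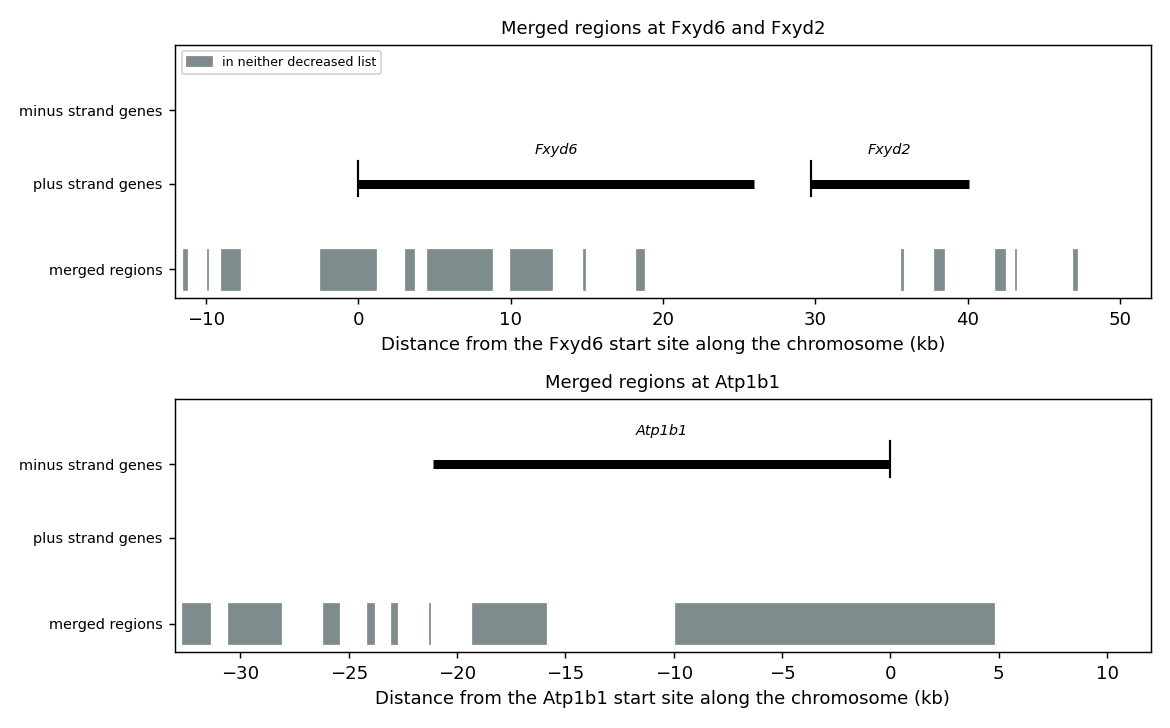
Maps of the *Fxyd6* and *Fxyd2* locus (upper panel) and of *Atp1b1* (lower panel), with distance from the *Fxyd6* or *Atp1b1* start site in kb on the x axis. Grey bars are merged regions, none of which is in a decreased list in these windows, black lines are genes and ticks their start sites. The 14720 bp region spans the *Atp1b1* start site, while none spans the *Fxyd2* start site.

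Counted together, 2 of the 24 regions were in the H3K4me2 list, against 2.69% of the 194694 regions tied to any protein-coding gene by the same rule and 1.87% of all merged regions. For H3K4me1 it was 0 of 24, against 0.935% and 0.761%. Of the 5 regions that held a TSS of a member 1 was in the H3K4me2 list and none in the H3K4me1 list, against 22.5% and 1.18% of all regions over a protein-coding TSS. By gene, 3 of 7 members had an H3K4me2-decreased region (*Fxyd1*, *Fxyd7* and *Fxyd3*), against 25.6% of all 22380 protein-coding genes, and 0 of 7 had an H3K4me1-decreased one, against 6.33%. Of the 6 members with a TSS in a merged region, 2 had decreased H3K4me2 there, by the same region, against 29.2% of 15752 such genes, while none had decreased H3K4me1 there, against 1.29%. Since the first of these counts was in view when the genes were picked, and with so few genes, nothing is read from the distance of the members' counts to these shares. 

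The 24 regions ranged from 60 to 14720 bp, with a median of 630.0 bp against 320.0 bp for all merged regions. Of them, 10 were narrower than 500 bp, 9 were at least 1000 bp wide and 5 held a TSS of a member. The 5 TSS regions were all wider than 1000 bp, whereas the 19 regions without a member TSS included all those under 500 bp. The order of the widest TSS region per gene was *Atp1b1* (14720 bp), *Fxyd1* and *Fxyd7* (6460 bp, shared), *Fxyd6* (3660 bp), *Fxyd5* (1820 bp) and *Fxyd3* (1060 bp). The median over protein-coding genes was 3640 bp, so *Fxyd6* lay close to it.

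**Figure D3:**
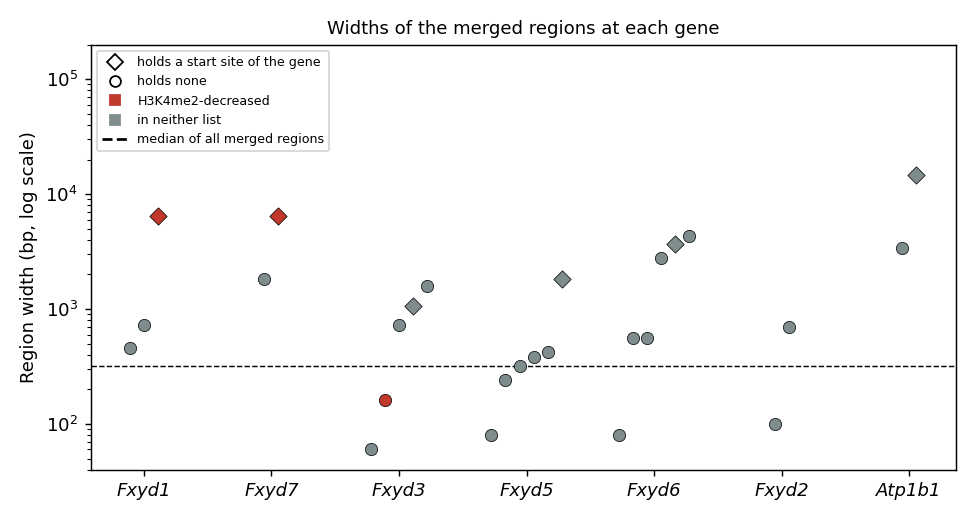
Width of each merged region tied to each gene, in bp on a log scale. Diamonds hold a start site of the gene and circles do not, red marks regions with decreased H3K4me2, and the dashed line is the median of all merged regions (320.0 bp). The same 6460 bp region is drawn at *Fxyd1* and *Fxyd7*, and the red circle at *Fxyd3* is 160 bp wide.

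Wide TSS regions were called more often, so each member was set beside TSS regions of its own width. Decreased H3K4me2 was called in 32.2% of the 4901 TSS regions of 4000 to under 8000 bp, the class of *Fxyd1* and *Fxyd7*, and in 39.4% of the 1846 regions of 8000 bp or more, the class of *Atp1b1*. In the class of *Fxyd6* (2000 to under 4000 bp) it was 23.4%, and in that of *Fxyd5* and *Fxyd3* (1000 to under 2000 bp) 7.72%. It was 1.45% from 500 to under 1000 bp and 0.272% below, where no member had its TSS region. For H3K4me1 the shares from the widest class to the narrowest were 3.52%, 1.35%, 0.819%, 0.835%, 0.0854% and 0.272%, so the widest class had the highest share there too. Among the members the widest TSS region was not called and the next was, in classes where 39.4% and 32.2% of regions were called. Nothing is read from this order.

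**Figure D4:**
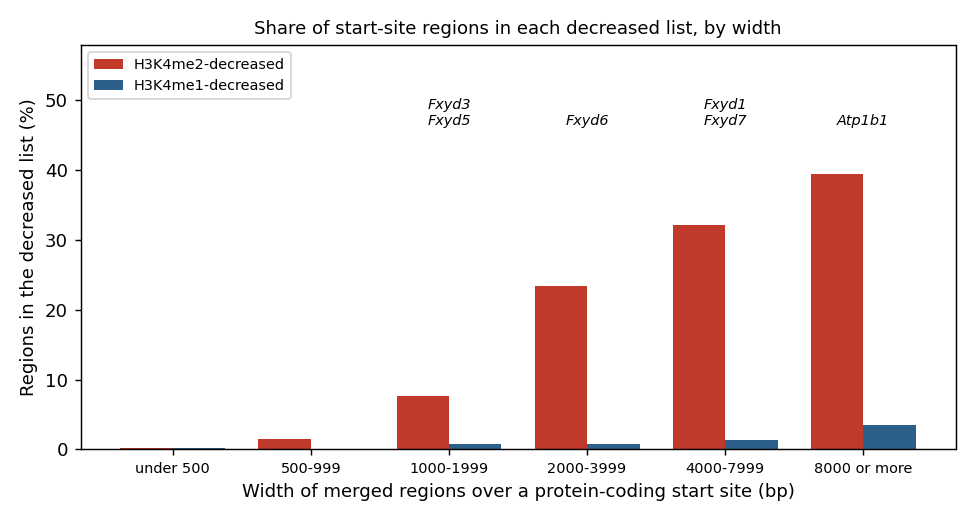
Share of merged regions over a protein-coding start site that are in the H3K4me2-decreased list (red) or the H3K4me1-decreased list (blue), in percent, by region width in bp. Member genes are named above the class of their widest start-site region, and *Fxyd2* has none. The red share rises from 0.272% under 500 bp to 39.4% at 8000 bp or more.

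The promoters differed in CpG content, which the choice of genes did not use. Within 500 bp of the first TSS the ratio of observed to expected CpG was 0.208 at *Fxyd1* (17 CpG), 0.171 at *Fxyd2*, 0.214 at *Fxyd3*, 0.315 at *Fxyd5*, 0.363 at *Fxyd7*, 0.507 at *Fxyd6* and 0.796 at *Atp1b1* (99 CpG). The 6 *Fxyd* genes were thus all below the median of 0.549 over 22368 protein-coding genes, and *Atp1b1* was above it. Genes with decreased H3K4me2 over the first TSS had a median ratio of 0.785, and 14.8% of those 4320 genes had a ratio under 0.6. Over all 15058 genes with the first TSS in a merged region, the values were 0.703 and 33.4%. Among genes with a ratio under 0.6 and a TSS region of 4000 to under 8000 bp, as at *Fxyd1* and *Fxyd7*, 18.3% of 1034 were called, against 41.0% of 3838 with a ratio of 0.6 or more. Over all widths the shares were 12.7% and 36.7%. *Fxyd1* and *Fxyd7*, which share 1 region and its call, were in a class of promoters in which calls were less frequent at equal width. *Atp1b1*, which was not called, was in a class in which they were more frequent over all widths. The width class of *Atp1b1* was not split by CpG ratio. Neither comparison is a test of these genes, since the calls were in view when they were chosen.

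Motifs were searched on both strands in the 250 bases before the first TSS of each member and of 22368 protein-coding genes. GGGCGG, the core of the GC box, had 5 matches before *Fxyd7* and 2 before *Atp1b1*. It had 1 match before *Fxyd1*, in the part of the promoter inside the region (-92 to -87 from the TSS), and 39.6% of all promoters held at least 1. CCAAT was found in 4 of 7 members (*Fxyd3*, *Fxyd6*, *Fxyd7* and *Atp1b1*) and in 35.0% of promoters. CANNTG, the E-box, was found in 3 of 7 (*Fxyd1*, *Fxyd2* and *Fxyd6*) and in 63.5%. CATTCC, bound by TEAD factors, was found in 2 of 7 (*Fxyd2* and *Fxyd3*) and in 11.4%. TATAAA, the SRF CArG box and the MEF2 site were found in 0 of 7, and in 12.3%, 1.34% and 2.94% of promoters. No match overlapped another in these promoters. For *Fxyd1* the first TSS is the outer one, and none of these motifs was found in the 250 bases before its inner TSS. A match describes letters in the window and not a bound site.

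The other beta subunit genes were examined beside *Atp1b1*, and none had a TSS in a decreased region. *Atp1b2* (7980 bp) and *Atp1b3* (5220 bp) had TSS regions of a width close to that at *Fxyd1*, and neither region was in a list, while *Atp1b4* had no TSS region. *Atp1b2* was tied to a 100 bp intergenic region with decreased H3K4me1 (chromosome 11, 69411146 to 69411245), 4998 bp from its nearest TSS. *Fxyd4* had no TSS region. Decreased H3K4me2 over a TSS was thus called in 0 of 4 beta subunit genes, 3 of which had a TSS in a merged region, and in 2 of 7 *Fxyd* genes, 5 of which did. Among all protein-coding genes with a TSS in a merged region the share was 29.2%. The 2 *Fxyd* genes share 1 region. Counted by region, it was 0 of 3 at the beta subunit genes and 1 of 4 at the *Fxyd* genes, against 22.5% of all regions over a protein-coding TSS. The difference between the classes was not tested, and the counts are small.

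**Figure D5:**
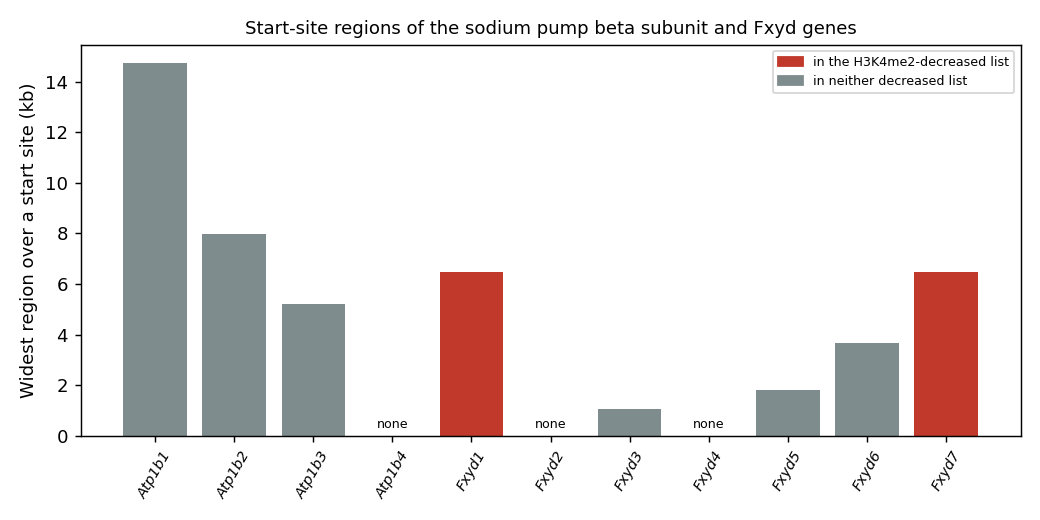
Width in kb of the widest merged region over a start site of each sodium pump beta subunit and *Fxyd* gene, as bars from 0. Red bars are regions in the H3K4me2-decreased list, grey bars are in neither list and "none" means no start site in a merged region. The region shared by *Fxyd1* and *Fxyd7* is red, and all beta subunits with a region are grey.

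Among the 15752 protein-coding genes with a TSS in a merged region, 29.2% had one in an H3K4me2-decreased region. Of 10 genes that work with phospholemman or the sodium gradient, 9 had a TSS in a merged region. Of these, 3 had a TSS in an H3K4me2-decreased region. They were *Pln* (phospholamban, inhibitor of the calcium pump of the sarcoplasmic reticulum), whose 21180 bp region was the widest of the list, and the kinase genes *Prkca* (9320 bp) and *Prkacb* (4420 bp). *Prkca* also had 2 intronic regions with decreased H3K4me1, of 2400 and 1560 bp, 122367 and 138617 bp from the nearest TSS. The sodium-calcium exchanger gene *Slc8a1* had 87 regions, none in either list, and a TSS region of 960 bp. Of 4 related ion pumps, *Atp2a2*, the calcium pump that *Pln* inhibits, was called for H3K4me2 over its TSS (11060 bp). The proton-potassium pump genes *Atp4a* (TSS region of 1440 bp) and *Atp12a* (2500 bp) were in neither list. *Atp4b* had 0 merged regions, so it could be in neither. In the width classes of *Atp2a2*, *Atp4a* and *Atp12a*, 39.4%, 7.72% and 23.4% of TSS regions had decreased H3K4me2.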

How the data were processed

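Chromatin immunoprecipitation and sequencing (ChIP-Seq) of H3K4me1, H3K4me2 and H3K4me3 was performed by the authors on pools of E11.5 hearts. Per the submitters' processing notes the reads were handled with CASAVA 1.8.2, FastQC, Bowtie2, Bowtie and SAMtools on mm9. Versions of the others, the peak caller and the test behind the decreased lists are not given in the sources used here. The study's text gives a false discovery rate cut for its decreased regions. Whether the deposited lists used the same cut is not given in the sources used here. The deposited lists hold chromosome, start and end of each region and no other value. The authors merged peaks over replicates and marks, so no list belongs to 1 library. Sample groups and replicate numbers were taken from the titles, since the replicate tag in the labels numbers the marks.

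Starts were converted to 1-based positions. Genes came from GENCODE vM1 (NCBIM37), and no region on the 21 chromosomes ran past the end of its chromosome in that assembly. A region was tied to a gene by an overlap of at least 1 bp with its body or with 5 kb on either side of any of its TSS, and was called decreased when its coordinates were identical to those of a listed region. All 9257 distinct decreased regions had an identical merged region. The overlap counting was checked on 400 simulated regions with 2000 queries and gave 0 mismatches. CpG content was counted within 500 bp of the first TSS, motifs in the 250 bases before it, and uniqueness as the share of 32-base words found more than once on either strand. RefSeq promoters (GRCm38.p6) were found for 5 of 7 members, and each matched NCBIM37 once by sequence. No protein sequences were used here. Scripts ran in Python 3.11.15 with numpy 2.4.6 and numba 0.67.0.

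The members, the lists and the rule for named genes (every member, and a listed gene where a region of it was decreased or was also tied to a member) were chosen with earlier results of these data known. No test was run, as the calls chose the members and the lists carry no replicate values. *Slc8a1*, the genes without a call in the pump lists and the genes around *Fxyd1* were named after their values were seen. Some genes of these lists and 1 sequence are not reported here.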

Additional observations from a re-analysis of the deposited data

How the results depend on the processing

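No paired analysis was possible because the lists carry no value per library, and for the same reason no replicate could be left out and no stricter peak threshold applied. A minimum region width stood in for the latter. Of 118 values recomputed under other settings, 102 stayed within 1.5 times the reported one, and 14 of the 16 others were counts of regions at single genes. The number of regions at the 7 genes was 14 with regions of at least 500 bp in place of 24, by construction. Without the gene body, the share of protein-coding genes with an H3K4me1-decreased region was 2.46% in place of 6.33%.

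*Fxyd1* and *Fxyd7* held their H3K4me2 call under each setting run, and the number of members with a TSS in that list stayed at 2. This followed by construction. No setting changed the calls, and the shared region holds a TSS of both genes and is wider than each width cut. The call at *Fxyd3* was lost with a TSS window of 1 kb and with regions of at least 200 or 500 bp, which left 2 members with a call. Of all protein-coding genes, 24.2%, 24.1% and 23.9% had a call under these settings. With a window of 10 kb it was 4 members, against 28.4% of all protein-coding genes, because *Fxyd5* was then tied to the *Fxyd1* region. *Fxyd1*, *Fxyd7* and *Fxyd5* then shared 1 region and its call. The number with an H3K4me1-decreased region was 0 under each setting, against 2.46% to 7.28% of all protein-coding genes. That 0 was also fixed in advance. The H3K4me1-decreased region nearest to a member lay 15160 bp from the *Atp1b1* TSS, beyond the widest window. Counting a TSS within 200 bp of a region, a setting chosen after seeing the data, raised the members with a marked TSS from 6 to 7 by adding *Fxyd2*.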
